A study of Mus musculus with 11 samples.

Results

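The metalloproteinase inhibitors described here are the 4 tissue inhibitors of metalloproteinases, Timp1, Timp2, Timp3 and Timp4, and the membrane-anchored inhibitor Reck. They were taken by gene symbol from the merged count table, and all 5 were found among its 22600 genes and passed the filter on low counts, which left 16496 genes. RNA was sequenced from whole distal tibiae in 2 groups, 4 Control mice (genotype label BMAd-WT) and 7 BMAd-DTA mice, each mouse giving its own library. All were C57BL6/SJL mice fed ad libitum, with a labelled age of 24 weeks. Per the study's methods, the mice of both groups carried Osterix-FLPo and FAC, an Adipoq allele whose Cre cassette is turned into reading direction by FLPo, and BMAd-DTA mice also carried ROSA-DTA, in which Cre removes a stop cassette in front of diphtheria toxin A. Cre therefore needs past Osterix expression and current Adipoq expression, which bone marrow adipocytes (BMAds) share with a small part of the adipocyte-lineage stromal cells, and recombination was not complete.

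Metalloproteinases are zinc enzymes that cut collagen, proteoglycans and cell surface proteins. A TIMP is a small secreted protein whose amino-terminal domain plugs the active site of the enzyme. TIMP2 also helps the membrane enzyme MMP14 to activate the precursor of MMP2, TIMP3 binds to the matrix and is the member best known for inhibiting ADAM17 and the aggrecan-cutting ADAMTS enzymes, and RECK is held in the membrane by a lipid anchor and also serves in Wnt7 signalling.

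In BMAd-DTA tibiae, none of the 5 inhibitors passed the test over all genes, but 3 lay higher in most or all of the mice than in Controls. Timp2 was 1.31-fold higher (95% interval 1.18 to 1.46) and its groups did not overlap. Timp1 was 2.10-fold higher (1.34 to 3.30), and 6 of 7 BMAd-DTA mice had more than the highest Control. Reck was 1.16-fold higher (1.01 to 1.32), and 5 of 7 did so. Timp3 and Timp4 had intervals that reached from lower to higher levels, 0.919-fold (0.807 to 1.05) for Timp3 and 0.838-fold (0.388 to 1.81) for Timp4. In the quasi-likelihood fit of edgeR, with p adjusted by Benjamini-Hochberg over 16496 genes, 0 of 5 members had an adjusted p under 0.05, where 0.0788% of all genes did, 13 in all. At an unadjusted p under 0.05 there were 3 members, all higher in BMAd-DTA mice, where 7.89% of all genes were higher, 8.53% lower and 16.4% in either direction. DESeq2 called 2 members, Timp1 and Timp2, where it called 5.42% of genes (2.78% higher in BMAd-DTA). Limma-voom called Timp2 alone, where it called 0.121% (0.0849% higher). The median log2 fold change of all tested genes was 0.0018.

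**Figure D1:**
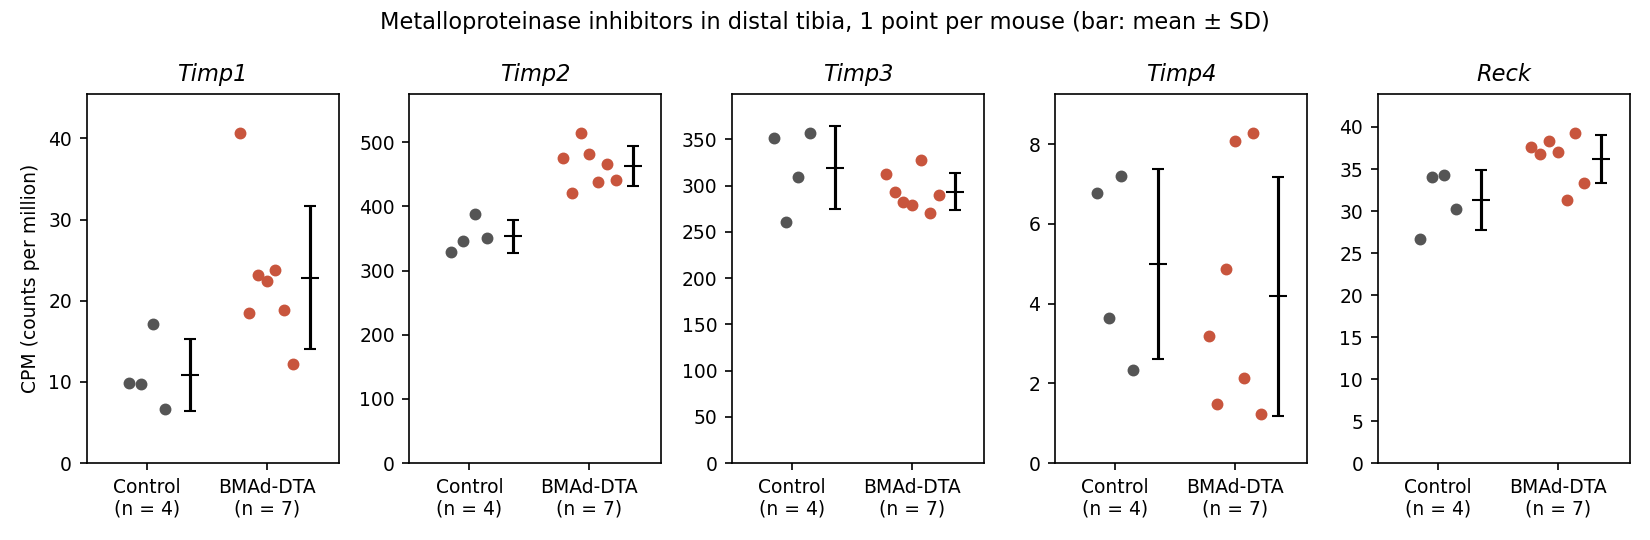
CPM (read counts scaled to a common library size, vertical axes starting at 0, 1 scale per gene) of the 5 inhibitors in each Control (grey, n = 4) and BMAd-DTA (red, n = 7) mouse, with the mean ± SD as a bar beside the points. All 7 BMAd-DTA mice lie above every Control for Timp2, 6 do for Timp1 and 5 for Reck, while the groups overlap for Timp3 and Timp4.

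Total counts per library were 16969529 to 18637663 in Controls and 17128711 to 18432805 in BMAd-DTA mice. The 12 osteoblast and osteocyte markers summed to 2057 to 7969 CPM in Controls and 10065 to 21304 CPM in BMAd-DTA mice, with all 12 higher and Alpl, the alkaline phosphatase of mineralising cells, past the threshold. The 12 adipocyte markers summed to 1412 to 2566 CPM in Controls and 532 to 1650 CPM in BMAd-DTA mice, with all 12 lower and Retn, the adipocyte hormone resistin, past the threshold. The 8 tested chondrocyte markers had 7 higher and none past the threshold, and only Col2a1 had groups without overlap. The sum of the list was 449.6 to 723 CPM in Controls and 781 to 974 CPM in BMAd-DTA mice. Groups without overlap were also seen for 5 of the 12 osteoblast and osteocyte markers and 3 of the 12 adipocyte markers. Over all tested genes this share was 2.81%. Skeletal muscle markers differed widely between mice of both groups, from 20.6 to 1414 CPM in Controls and from 21.0 to 1095 CPM in BMAd-DTA mice. The median muscle sum was 550 CPM in Controls and 192 CPM in BMAd-DTA mice. All 12 muscle markers had a lower estimate in BMAd-DTA mice. None had an unadjusted p under 0.05 by edgeR, where 8.53% of all tested genes were lower at that level. In whole bone, fewer cells of a type and less RNA per cell cannot be told apart. Xist had 13810 to 20260 counts in every library and 4 genes of the Y chromosome summed to 0 or 1, as in female mice. The study's legends name male mice, and Timp1 is an X-linked gene.

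Timp2 was the most abundant inhibitor per kilobase of exon in every mouse. The gene (ENSMUSG00000017466.9) lies on the minus strand of chr11:118301069-118355740 on GRCm38. Controls 1 to 4 had 328, 346, 388 and 351 CPM, from 5872 to 6761 counts. BMAd-DTA mice 1 to 7 had 475, 421, 514, 482, 438, 467 and 441 CPM, from 7352 to 9060 counts. The lowest BMAd-DTA mouse was above the highest Control, and the spread within each group was small, with a coefficient of variation of 7.10% in Controls and 6.81% in BMAd-DTA mice. Mean levels were 353 ± 25.1 CPM (SD, n = 4) and 463 ± 31.5 CPM (SD, n = 7). The log2 fold change was 0.39 (SE 0.070, adjusted p = 0.0663 by edgeR). Separation of all mice, as for Timp2, was seen in 2.81% of all tested genes, with BMAd-DTA higher in 1.78% and lower in 1.04%. DESeq2 gave Timp2 an adjusted p of 4.38e-05 and limma-voom one of 0.0472, and over all alternatives the adjusted p lay between the first of these and 0.213.

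Timp1 had the greatest fold difference of the 5 and the second greatest spread. The gene (ENSMUSG00000001131.11) is short, at chrX:20870166-20874735 on the plus strand, and sits inside an intron of Syn1, a neuronal synapsin gene read from the other strand. Controls 1 to 4 had 9.86, 9.72, 17.2 and 6.69 CPM. BMAd-DTA mice 1 to 7 had 40.7, 18.5, 23.2, 22.4, 23.8, 18.9 and 12.3 CPM. Control 3 was the highest Control and BMAd-DTA mouse 7 the only one of its group below it, while BMAd-DTA mouse 1 stood well above the rest. Means were 10.9 ± 4.47 CPM (SD, n = 4) and 22.8 ± 8.80 CPM (SD, n = 7). The log2 fold change was 1.07 (SE 0.30, adjusted p = 0.11 by edgeR and 0.0343 by DESeq2). It was 0.87 without BMAd-DTA mouse 1 (adjusted p = 0.145 by edgeR), and over all alternatives the adjusted p was 0.0343 to 0.343.

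Control 3 was the Control with the highest Timp1 and Timp2. Among Controls it had the highest marker sums of osteoblasts and osteocytes (7969 CPM), chondrocytes (723 CPM), adipocytes (2566 CPM), skeletal muscle (1414 CPM) and neutrophils (16403 CPM). Control 3 had the lowest Control sums for endothelium (830 CPM) and for megakaryocytes and platelets (1486 CPM). For macrophages (1425 CPM) and for tendon and fibrous tissue (309 CPM) it lay between other Controls. Leaving this mouse out brought both genes past the threshold in edgeR, with a log2 fold change of 1.39 (adjusted p = 0.0462) for Timp1 and 0.44 (adjusted p = 0.0369) for Timp2, in a fit that called 292 genes or 1.74% of those tested. As the highest Control for both genes was left out, a rise of both differences was set in advance. Without Control 1, 2 or 4 instead, the adjusted p by edgeR was 0.343, 0.235 or 0.181 for Timp1. For Timp2 it was 0.213, 0.15 or 0.0538. The sums of osteoblast and osteocyte markers and of chondrocyte markers both separated the groups as Timp2 did. Of the 8 tested chondrocyte markers only Col2a1 did so by itself. Its means were 217 CPM in Controls and 468 CPM in BMAd-DTA mice, the largest difference in CPM of that list. The osteoblast and osteocyte sum mainly follows 1 collagen gene, Col1a1, with means of 4720 CPM in Controls and 12016 CPM in BMAd-DTA mice. The next largest marker, Ibsp, had 425 and 851 CPM. Within BMAd-DTA the mice with more Timp2 did not always have a higher osteoblast marker sum. Mouse 3 of that group had both the highest Timp2, 514 CPM, and the highest marker sum, 21304 CPM, but mouse 2 had the lowest Timp2, 421 CPM, beside the next highest sum, 19245 CPM. For Timp1, the highest mouse, BMAd-DTA 1, had one of the lowest marker sums of its group, 10159 CPM. Its chondrocyte marker sum was 909.7 CPM, and that of BMAd-DTA mouse 3, with the highest Timp2, was the lowest of the group, 781 CPM. The part of these cells in either difference was not tested.

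**Figure D2:**
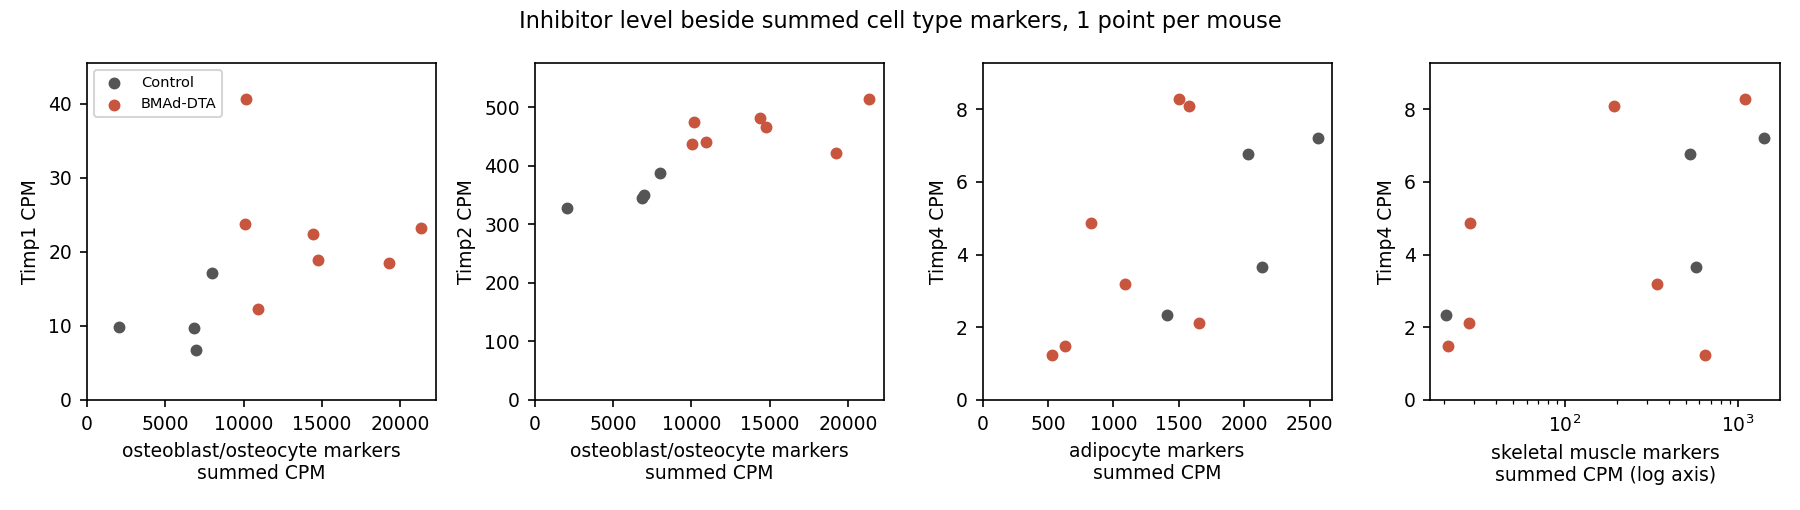
Level of Timp1, Timp2 and Timp4 in each mouse (vertical axes, CPM from 0) beside the summed CPM of cell type markers in the same library (horizontal axes, the muscle sum on a log axis), with Controls in grey and BMAd-DTA mice in red. Osteoblast and osteocyte marker sums separate the groups as Timp2 does, whereas BMAd-DTA mouse 1, with 40.7 CPM of Timp1, lies at a marker sum of 10159 CPM, and the Timp4 values of the 2 groups are mixed over both panels.

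The sequences in front of Timp1 and Timp2 are shown because these were the inhibitors with the smallest p values. They are the 250 bases before the RefSeq transcription start (GRCm38.p6), written 5′ to 3′ on the strand of the gene, with the GC box (GGGCGG on either strand, a binding motif of Sp family factors) in capitals. The Timp1 window is chrX:20869916-20870165 on the plus strand and the Timp2 window is chr11:118355412-118355661 on the minus strand. The RefSeq start of Timp2 lies 329 bases inside the gene as GENCODE has it, so that this whole window lies inside the GENCODE gene.
Timp1: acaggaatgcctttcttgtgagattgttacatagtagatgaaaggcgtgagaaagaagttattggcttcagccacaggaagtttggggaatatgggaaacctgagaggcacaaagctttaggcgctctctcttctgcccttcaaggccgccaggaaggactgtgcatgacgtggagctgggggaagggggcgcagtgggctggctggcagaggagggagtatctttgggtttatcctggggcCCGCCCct
Timp2: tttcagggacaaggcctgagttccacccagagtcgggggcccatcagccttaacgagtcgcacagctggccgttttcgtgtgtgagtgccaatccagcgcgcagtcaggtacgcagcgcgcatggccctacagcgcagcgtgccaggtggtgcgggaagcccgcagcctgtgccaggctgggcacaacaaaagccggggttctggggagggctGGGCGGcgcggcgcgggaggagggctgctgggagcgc
Each window held 1 GC box, as did that of Timp3, while Reck had 2 and Timp4 none. Of 32851 mouse promoters of this length, 32.7% held at least 1. CCAAT was found once each for Timp1, Timp2 and Reck, on either strand, and in 33.8% of all promoters. Neither the AP-1 letters TGANTCA, found in 6.75% of all promoters, nor the TATA letters TATAAA, found in 12.4%, occurred in the 5 windows. The windows were 54.4% G and C for Timp1, 68.0% for Timp2, 65.6% for Timp3, 53.6% for Timp4 and 68.4% for Reck.

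Reck (ENSMUSG00000028476.13, chr4:43875530-43944806, plus strand) differed in the same direction by less. Controls 1 to 4 had 26.7, 34.04, 34.3 and 30.2 CPM. BMAd-DTA mice 1 to 7 had 37.6, 36.7, 38.3, 37.0, 31.3, 39.3 and 33.4 CPM. Mice 5 and 7 of this group fell among the Controls and the others lay above them. The means were 31.3 ± 3.59 CPM (SD, n = 4) and 36.2 ± 2.86 CPM (SD, n = 7), a log2 fold change of 0.21 (SE 0.088, adjusted p = 0.253 by edgeR). Control 1, the lowest Control for Reck, also had the lowest osteoblast marker sum, 2057 CPM, and without it the log2 fold change was 0.14 (adjusted p = 0.611 by edgeR).

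Timp3 (ENSMUSG00000020044.13, chr10:86300372-86349506, plus strand) was the only abundant inhibitor whose mean was not higher in BMAd-DTA mice. Controls 1 to 4 had 351, 260, 309 and 357 CPM. BMAd-DTA mice 1 to 7 had 313, 293, 282, 279, 328, 271 and 290 CPM, all inside the range of the Controls. The means were 319 ± 44.8 CPM (SD, n = 4) and 294 ± 20.2 CPM (SD, n = 7). The log2 fold change was -0.12 (SE 0.087, 95% interval -0.31 to 0.066, adjusted p = 0.526 by edgeR), and the log2 fold change of Timp2, 0.39, lay above this interval. Control 2 was the lowest of all 11 mice, and without it the log2 fold change was -0.21 (adjusted p = 0.265 by edgeR). Without Control 1 or 4, the highest of all mice, it was -0.073 (adjusted p = 0.834) or -0.065 (adjusted p = 0.801 by edgeR).

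The Timp3 level rests on counting by strand. Its last 1733 bases, chr10:86347774-86349506 on GRCm38, all in the untranslated part of the protein-coding transcript and 21.3% of the merged exon length, are also exonic in a retained-intron transcript of Syn3, a synapsin gene on the other strand. With strand, Timp3 had 4418 to 6880 read pairs per library. When pairs were counted without strand, and those fitting both genes were dropped as ambiguous, 2340 to 3683 were left, a loss of 45.8% to 49.3% that was alike in all mice. In the strand column opposite to that of the genes, Syn3 had 2041 to 3206 read pairs, while on its own strand it had 4 to 23 and did not pass the filter. The log2 fold change of Timp3 without strand was -0.14 (adjusted p = 0.447 by edgeR).

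**Figure D3:**
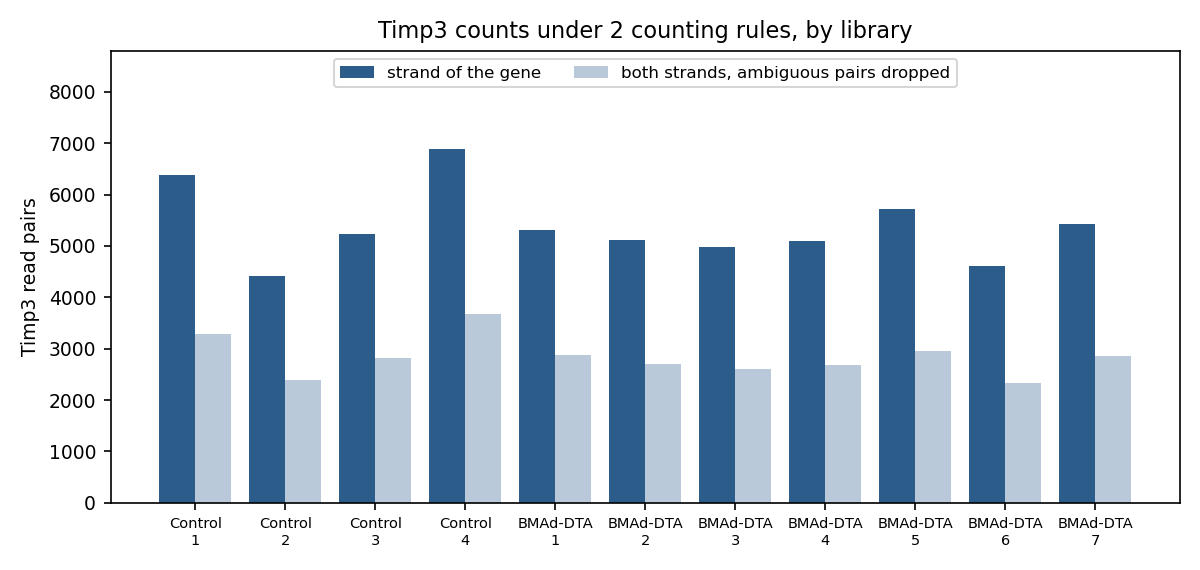
Timp3 read pairs in each library (vertical axis from 0) counted on the strand of the gene (dark bars) and without regard to strand, where pairs that also fit Syn3 are dropped (light bars). The dark bars run from 4418 to 6880 and the light bars from 2340 to 3683, with a similar loss in all 11 libraries.

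The summed counts of the other 4 inhibitors were not reduced without strand. Timp4 shares 90 exon bases, chr6:115244146-115244235, with Syn2 on the other strand, and Syn2 had 3 to 21 counts per library. Syn1, which shares no exon base with Timp1, had 43 to 96 counts, with a log2 fold change of 0.47 (adjusted p = 0.290 by edgeR), and that of Syn2 was 0.59 (adjusted p = 0.629). Timp1, Timp3 and Timp4 each lie within a synapsin gene. Gm17482 also spans Timp4 on the other strand and had 0 counts, as had Gm27265, an RNA gene in an intron of Reck, while Cep295nl, in an intron of Timp2 on the same strand, had 8 to 23. Counts on the strand opposite to the gene were 0.0448% of the total for Reck and 2.80% for Timp4, with the other members in between.

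Timp4, known from heart, muscle and fat, was the scarcest and most uneven inhibitor. The gene (ENSMUSG00000030317.8, chr6:115241892-115252205, minus strand) had only 23 to 148 counts per library. Controls 1 to 4 had 6.78, 3.65, 7.21 and 2.33 CPM. BMAd-DTA mice 1 to 7 had 3.18, 1.49, 4.88, 8.09, 2.12, 8.28 and 1.23 CPM. The BMAd-DTA group held both extremes, with 2 mice above and 3 below every Control, and its highest value was 6.75 times its lowest. The means were 4.99 ± 2.38 CPM (SD, n = 4) and 4.18 ± 2.99 CPM (SD, n = 7), and the log2 fold change of -0.25 (SE 0.51, adjusted p = 0.855 by edgeR) left a decrease or an increase of over 1.5-fold inside its interval.

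The uneven levels of Timp4 stood beside uneven marker sums. Of the 4 mice with more than 6 CPM of Timp4, Controls 1 and 3 and BMAd-DTA mice 4 and 6, the adipocyte markers summed to 2026, 2566, 1580 and 1502 CPM and the skeletal muscle markers to 529, 1414, 192 and 1095 CPM. The 2 lowest mice, BMAd-DTA 7 and 2, had the 2 lowest adipocyte sums, 532 and 628 CPM, but muscle sums of 650 and 21.0 CPM. Other mice went the other way, since BMAd-DTA 5, with 2.12 CPM of Timp4, had the highest adipocyte sum of its group, 1650 CPM, and Control 2, with 3.65 CPM, had 2135 CPM. With a skeletal muscle score in the model the log2 fold change of Timp4 was 0.048, with the sign turned (adjusted p = 0.975 by edgeR). Car3 was the largest single term of the adipocyte sum, with means of 899 CPM in Controls and 521 CPM in BMAd-DTA mice. The part of fat or muscle tissue in these values was not tested.

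**Figure D4:**
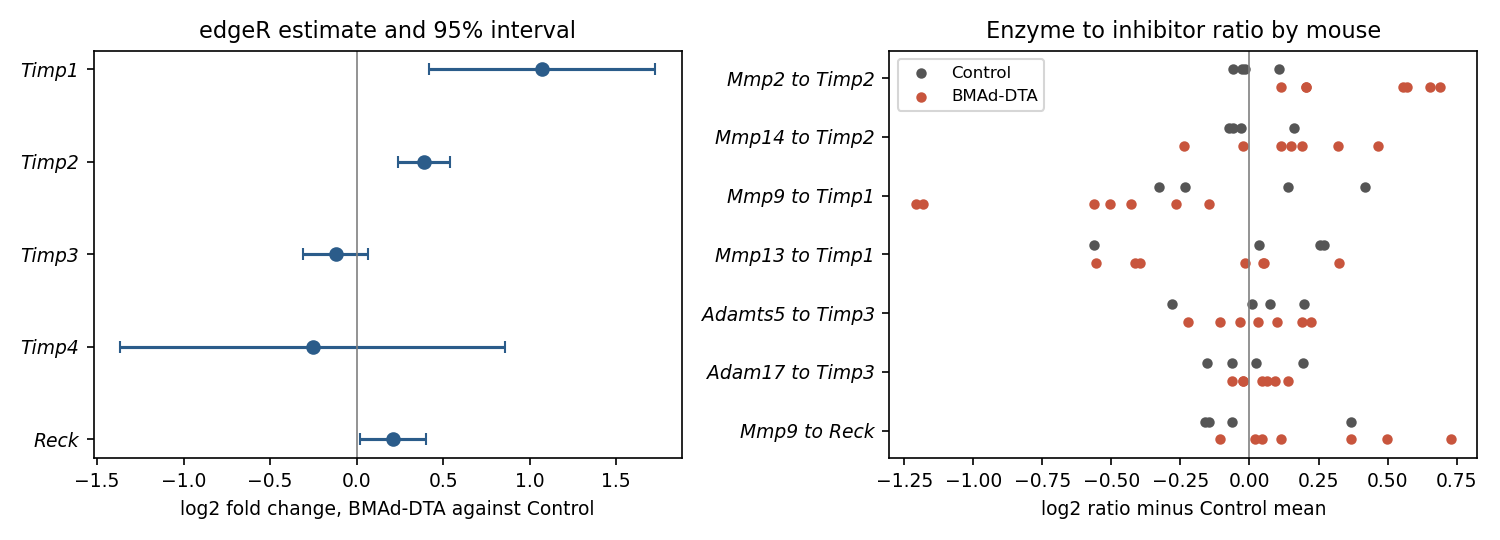
Left, log2 fold change of each inhibitor between BMAd-DTA and Control with its 95% interval (edgeR), from 1.07 for Timp1 to -0.25 for Timp4. Right, log2 ratio of enzyme to inhibitor for 7 pairs in each mouse, minus the Control mean of that pair, with Controls in grey and BMAd-DTA mice in red. Only the Mmp2 to Timp2 ratio of all 7 BMAd-DTA mice lies above that of every Control.

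Levels of different genes were set side by side as CPM per kilobase of merged exons. On this scale the order was Timp2, Timp3, Timp1, Reck, Timp4 in the means of both groups. Controls averaged 90.6, 39.2, 12.2, 6.56 and 0.847 CPM per kilobase in this order. BMAd-DTA mice averaged 119, 36.1, 25.7, 7.58 and 0.709 CPM per kilobase. Neighbours kept their order in all 11 mice except Timp3 and Timp1, whose order was turned in BMAd-DTA mouse 1, where Timp3 was 0.839 times Timp1. With the length of the longest transcript in place of merged exons, 4722 rather than 8144 bases for Timp3, no mouse departed from the order.

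Timp3 made up less of the summed level of the 5 inhibitors in BMAd-DTA mice. By merged exons, its share of the sum per kilobase was 22.9% to 29.7% in Controls (mean 26.3%) and 17.2% to 21.6% in BMAd-DTA mice (mean 19.2%), without overlap. With the longest transcript the shares were larger, 32.9% to 41.1% and 25.6% to 31.3%, also without overlap. By merged exons, Timp2 was 1.95 to 2.78 times Timp3 in Controls and 2.79 to 3.81 times in BMAd-DTA mice. The highest Control and the lowest BMAd-DTA mouse thus nearly touched. With the longest transcript the ratio was 1.19 to 2.32 over all mice. The share of Timp1 by merged exons was 5.09% to 11.7% in Controls and 8.13% to 21.3% in BMAd-DTA mice. These shares follow from the levels above and were not tested.

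**Figure D5:**
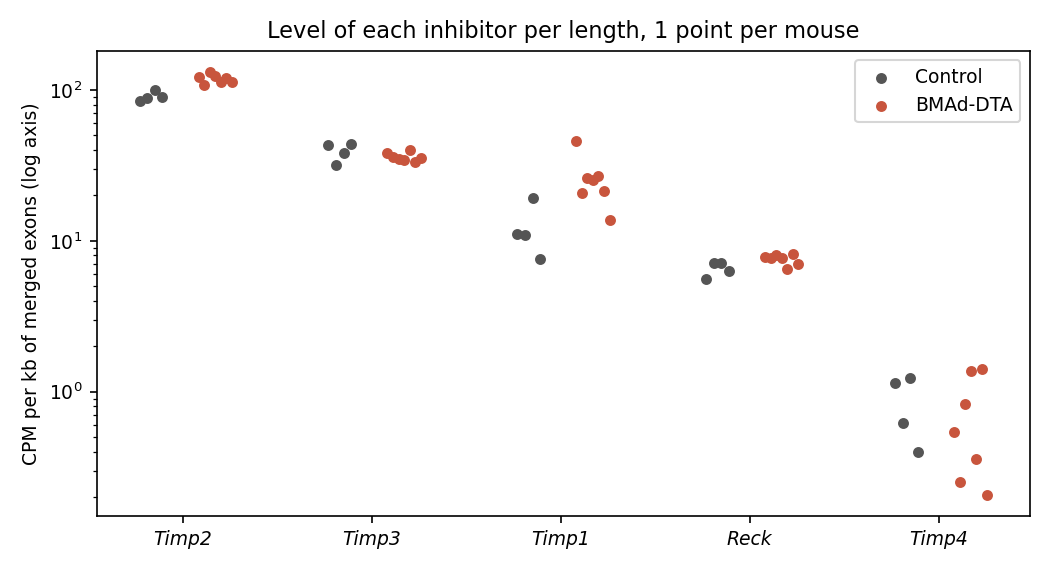
Level of each inhibitor in each mouse as CPM per kilobase of merged exons (log axis), ordered from the most to the least abundant, with Controls in grey and BMAd-DTA mice in red. Group means run from 90.6 (Control) and 119 (BMAd-DTA) for Timp2 down to 0.847 and 0.709 for Timp4, and Timp3 and Timp1 meet in 1 BMAd-DTA mouse.

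Inhibitors were next compared with the enzymes they act on, as log2 ratios of CPM within each mouse. These depend on the scaling of the libraries only through the prior count of 2 that was added before taking logs. The differences between groups in 7 pairs were tested by exact permutation, two-sided, over the 330 splits of 11 mice into 4 and 7, whose smallest p is 0.00303, with Benjamini-Hochberg adjustment over the 7 pairs. The pairs were chosen with earlier results of these data known and Mmp2 had passed the test by itself, so that these p values describe the 11 mice and are not independent evidence. Mmp2 is the gelatinase that TIMP2 both inhibits and helps to activate. Its log2 ratio to Timp2 was -1.95 to -1.79 in Controls and -1.78 to -1.20 in BMAd-DTA mice. No BMAd-DTA mouse was as low as the highest Control, although mouse 1 was above it by less than 0.01. The mean difference was 0.43, from -1.89 ± 0.073 (SD, n = 4) to -1.46 ± 0.24 (SD, n = 7), with p = 0.00606 and adjusted p = 0.0424 by the exact permutation test. Without any 1 mouse the difference was 0.38 to 0.48 and the adjusted p 0.0667 to 0.253. With 3 Controls there are 120 splits and the smallest p is 0.00833, which adjusts to 0.0583 for a lone pair, so that in those 4 designs the threshold could not be met by this pair alone. Mmp2 was itself among the genes past the threshold, so this ratio restates that Mmp2 rose by more than the difference in Timp2, from 95.2 ± 8.01 to 169 ± 29.2 CPM (log2 fold change 0.83, SE 0.12, adjusted p = 0.0326 by edgeR).

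The other 6 ratios had adjusted p values above 0.05. Mmp14, the membrane collagenase that works with TIMP2 on MMP2, differed by 0.54 on the log2 scale (adjusted p = 0.0992 by edgeR), and its ratio to Timp2 differed by 0.14 (adjusted p = 0.493, exact permutation test). Mmp9, the gelatinase of neutrophils and osteoclasts, had a ratio to Timp1 below that of every Control in 5 of 7 BMAd-DTA mice, with a difference of -0.61 in the log2 ratio (p = 0.0455, adjusted p = 0.159, exact permutation test). Relative to Reck, Mmp9 differed by 0.24 (adjusted p = 0.481, exact permutation test). Mmp13, a collagenase of osteoblasts and hypertrophic cartilage, differed by -0.14 relative to Timp1 (adjusted p = 0.732, exact permutation test). For 2 targets of TIMP3 the differences were 0.025 for Adamts5, an aggrecan-cutting enzyme (adjusted p = 0.815), and 0.033 for Adam17, which sheds TNF from the cell surface (adjusted p = 0.732, both by the exact permutation test).

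Of all enzymes listed, Mmp2 alone was past the threshold. Of the secreted matrix metalloproteinases, 11 of 14 were tested, of which Mmp2 was called higher and none lower, 6 were higher and none lower at an unadjusted p under 0.05 (7.89% and 8.53% of all tested genes), and the median log2 fold change was 0.45, against 0.0018 for all tested genes. The list ran from Mmp12, the macrophage elastase, at 4.10 (1.43 ± 1.74 against 24.2 ± 27.8 CPM, adjusted p = 0.0841 by edgeR) to Mmp27 at -0.22 (adjusted p = 0.761). Of the membrane-type enzymes, 5 of 6 were tested and none was called. At an unadjusted p under 0.05, 1 was higher and 1 lower (7.89% and 8.53% of all tested genes). The median of the membrane-type enzymes was 0.31, from Mmp16 at 0.88 (adjusted p = 0.311 by edgeR) to Mmp25, a neutrophil enzyme, at -0.18 (adjusted p = 0.263).

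All 9 ADAM genes listed were tested and none was called, with their median at -0.010 on the log2 fold scale. At an unadjusted p under 0.05, none was higher and 1 lower, beside 7.89% and 8.53% of all tested genes. The ends of this list were Adam12 at 0.35 (adjusted p = 0.369 by edgeR) and Adam28 at -0.68 (adjusted p = 0.733). Of the 19 ADAMTS genes, 15 were tested and none was called, with 6 higher and none lower at an unadjusted p under 0.05, beside the same 7.89% and 8.53% of all tested genes, and a median of 0.36. They ran from Adamts17 at 0.80 (adjusted p = 0.304 by edgeR) to Adamts5 at -0.10 (adjusted p = 0.674).

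Other inhibitors and partners gave 1 further call. CD63, a tetraspanin that TIMP1 binds at the cell surface, was among the 8 listed TIMP binding partners, of which 7 were tested. Its gene was the only one of them called, where 0.0788% of all tested genes were. Cd63 rose from 147 ± 5.62 CPM (SD, n = 4) to 210 ± 21.1 CPM (SD, n = 7), with a log2 fold change of 0.51 (SE 0.077, adjusted p = 0.0326 by edgeR). Its groups did not overlap, as in 2.81% of all tested genes. The median of the partners was -0.0033, and the lowest was Efemp1, which encodes the matrix protein fibulin-3 that binds TIMP3, at -0.61 (adjusted p = 0.247 by edgeR). For Efemp1, 6 of 7 BMAd-DTA mice lay below every Control. At an unadjusted p under 0.05, 1 partner was higher, Cd63, and 1 lower, Efemp1 (7.89% and 8.53% of all tested genes). Of 12 other proteinase inhibitors and related proteins, 9 were tested and none was called, with a median of 0.23. At an unadjusted p under 0.05, 2 were higher and none lower (7.89% and 8.53% of all tested genes). The 2 were Rarres1 at 0.96 (adjusted p = 0.276 by edgeR) and Pcolce, a procollagen C-proteinase enhancer gene, at 0.50 (adjusted p = 0.0675). Rarres1 was the highest of the list and Ahsg the lowest, at -0.26 (adjusted p = 0.798).

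Of the 6 genes that act with Reck in Wnt7 signalling, 4 were tested and none was called by edgeR. At an unadjusted p under 0.05, 2 were higher and none lower (7.89% and 8.53% of all tested genes), Adgra2 and Lrp5. Lrp5 was at 0.31 on the log2 fold scale (adjusted p = 0.0726 by edgeR). Its groups did not overlap, with BMAd-DTA higher, as in 1.78% of all tested genes. Adgra2, the adhesion receptor GPR124 that pairs with RECK, was at 0.53 on the log2 fold scale (adjusted p = 0.0860 by edgeR), and Fzd4, a Wnt receptor, at -0.24 (adjusted p = 0.542). Wnt7b, one of the ligands, had 0 to 6 counts per library and was not tested.

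For each inhibitor, the 3 tested genes of at least 50 mean counts with the most similar log2 CPM over the 11 mice are given as a description. They were the highest of all such genes, and genes of one library share its cell composition. The r values run over both groups, so a group difference that 2 genes share enters them. Timp1 was most like Ckb (Pearson r = 0.95), Parva (0.94) and Ctsk (0.94), the last 2 encoding an actin and integrin adaptor and the collagen-cutting protease of osteoclasts. Timp2 was most like Vasn (0.97), Kirrel (0.96) and Lrp5 (0.96), a Wnt co-receptor, and of these Vasn passed the threshold (log2 fold change 0.75, adjusted p = 0.0374 by edgeR). With the group means taken out, r with Timp2 was 0.84 for Vasn, 0.91 for Kirrel and 0.90 for Lrp5. Reck was most like Pycr1 (0.97), an enzyme of proline synthesis, Igkv3-1 (0.94) and Txndc5 (0.94), a disulphide isomerase of the secretory pathway. Timp3 was most like Clcc1 (0.92), Ifit3 (0.91) and Gm7292 (0.91), and Timp4 like Sema3f (0.94), Ece1 (0.91) and Acadvl (0.90). Igkv3-1 and Ifit3 have close relatives in the genome, so that their counts are less certain.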

How the data were processed

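Strand-specific paired-end mRNA sequencing was performed on distal tibiae of separate mice. The authors used FastQC 0.11.9 for quality checks and STAR for alignment to mm10, and deposited raw counts of read pairs per gene, per library and merged. The annotation release is not given in the sources used here. Positions and lengths came from GENCODE M21 on GRCm38, and promoters from RefSeq (GRCm38.p6), with 5 of 5 members matched. The merged counts equal the strand column of the per-library counts that matches the reading direction of the genes.

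The tests were run with edgeR 4.0.16 under R 4.3.3 (filterByExpr, TMM, glmQLFTest, two-sided, genotype as the only term, adjusted p under 0.05). CPM were computed on TMM-scaled library sizes, and log2 ratios with a prior count of 2. Alternatives were DESeq2 1.42.0, limma-voom (limma 3.58.1), RLE scaling, no filter, all 55401 genes of the per-library counts, counts without strand, a skeletal muscle score as covariate, and each mouse left out. The steps were tested on simulated data. The members, lists and pairs were chosen with earlier results of these data known, so no list was tested, and the permutation p values of the pairs are not independent evidence.

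The text names the members and genes that overlap them, the paired enzymes, the called and the extreme genes of each list, and the 3 genes most like each member. A few other genes are named where they enter a count or make up much of a marker sum. Chi-square per gene was 17.85 or more for every pair of mice within a group, where sampling noise gives about 1. No batch is given in the labels.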

Additional observations from a re-analysis of the deposited data

Results flagged for a closer look

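The Timp1 level of BMAd-DTA mouse 1, 40.7 CPM, stood apart from the other 6 mice of its group, the nearest of which had 23.8 CPM. The gap was 0.593 of the range of the group, beyond the 95% limit of Dixon's test for 7 samples. Of 10 such groups (5 genes in 2 groups), this was the only one beyond its limit, and chance alone puts about 1 in 20 there.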

How the results depend on the processing

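The number of genes called was 13 by edgeR, 845 of 15583 by DESeq2, 20 by limma-voom, 20 with RLE scaling, 3 with the muscle covariate and 0 to 292 with 1 mouse left out. The members called, 0 by edgeR, were 2 by DESeq2 (log2 fold change 1.07 for Timp1 and 0.39 for Timp2), 1 by limma-voom (Timp2, 0.39) and 0 to 2 with 1 mouse left out, 2 only without Control 3. Without 1 mouse, the log2 fold change was 0.87 to 1.39 for Timp1 and 0.36 to 0.44 for Timp2. It was -0.51 to -0.022 for Timp4, -0.21 to -0.065 for Timp3 and 0.14 to 0.26 for Reck. That of Timp4 turned to 0.048 with the muscle covariate. Of the ratios, Mmp2 to Timp2 was 0.38 to 0.48 without 1 mouse, each time with an adjusted p above 0.05, which 3 Controls could not pass for a lone pair. Adamts5 to Timp3 ranged from -0.068 to 0.092, changing sign without Control 3, BMAd-DTA 3 (-0.0072) or BMAd-DTA 4 (-0.0021), and Adam17 to Timp3 from -0.019 to 0.097, changing sign without Control 1. With the sign kept, Mmp13 to Timp1 was -0.32 (without Control 2) to -0.046 (without Control 1), Mmp9 to Timp1 -0.72 to -0.47, Mmp9 to Reck 0.16 (without BMAd-DTA 3) to 0.36 (without Control 3), and Mmp14 to Timp2 0.086 (without BMAd-DTA 1) to 0.20 (without BMAd-DTA 7). The mean level of Timp3 over all mice, 37.2 CPM per kilobase of merged exons, was 64.2 with the longest transcript, which is shorter. The causes of the other changes were not tested. Timp1, Timp2, Timp3 and Reck kept the sign of their log2 fold change under every alternative. Depth limited Timp4 most, at 23 to 148 counts per library. No paired analysis was possible because the labels give no replicate numbers that the groups share.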
